A study of Homo sapiens with 6 samples.

Results

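The aminoacyl-tRNA synthetase genes encode the enzymes that join each amino acid to its transfer RNA. The 35 genes described here were chosen by name, 19 of them coding for cytosolic synthetases (symbols ending in 1, with FARSA and FARSB) and 16 for mitochondrial ones (symbols ending in 2). All 35 were measured, among 18404 genes in all. They were followed in H661, a human large cell lung carcinoma line, on 3 arrays of cells transduced with a scrambled hairpin (Scr-sh) and 3 arrays of cells transduced with a hairpin against SALL4 (SALL4-sh), a zinc finger transcription factor of embryonic stem cells. Both hairpins were carried by the lentiviral vector pLKO.1puro, so all 6 samples held a virus and a puromycin resistance gene, and the comparison asks which RNAs differ when SALL4 RNA is low. The SALL4-sh group rests on a single hairpin sequence. No source used here states how long after transduction RNA was taken, or that arrays of 1 group represent different cultures. The paper's general statement on its statistics speaks of independent experiments without naming the arrays. The p-values therefore reflect sample-to-sample spread that could be purely technical.

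A synthetase activates its amino acid with ATP, transfers it to the matching tRNA and, in many members of the family, removes a wrong amino acid again. Mitochondria translate their own small genome with enzymes imported from the cytosol, so most amino acids are served by a cytosolic and a mitochondrial synthetase from separate genes. Several cytosolic synthetases sit in the multi-synthetase complex, and the genes of many of them are switched on by the transcription factor ATF4 when amino acids are scarce.

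SALL4 itself had intensities of 125.5, 104.4 and 130.2 on the Scr-sh arrays and 33.6, 31.9 and 26.5 on the SALL4-sh arrays, and its groups lay far apart. Its log2 difference was -1.97 (SE 0.17, adjusted p = 0.000644 from limma). Arrays of the same group correlated at 0.969 to 0.980 and arrays of different groups at 0.955 to 0.965. EPCAM, an adhesion molecule of epithelial cells, had intensities from 590 to 1113, while the keratin KRT8 lay between 8 and 11.1, at or near the lowest value the files hold, which is 8. NKX2-1, a lung lineage factor, lay between 11.6 and 16.8. CDH1, which encodes E-cadherin, was dim but higher in SALL4-sh, with a log2 difference of 0.91 (adjusted p = 0.00965 from limma). PTPRC and CD3E of leukocytes and PECAM1, CDH5, VWF and DCN of endothelium and fibroblasts stood at that floor on all 6 arrays. The collagen genes COL1A1 and COL1A2 did not. COL1A2 was lower in SALL4-sh, with 212 to 282 in Scr-sh and 122 to 175 in SALL4-sh (log2 difference -0.79, adjusted p = 0.0301 from limma), and COL1A1 went from a mean of 50.1 to 35.9 (adjusted p = 0.0735 from limma), with groups that did not overlap. CD68, a macrophage marker, lay between 34.0 and 71.6 in Scr-sh and between 30.5 and 35.4 in SALL4-sh. The summed intensity of the 5 measured leukocyte markers was 68.0 to 104 in Scr-sh and 64.6 to 68.2 in SALL4-sh, and that of the 6 fibroblast and endothelial markers was 295 to 365 and 192 to 244. Their part in the results was not tested.

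All 35 members had a mean intensity high enough to enter the test, which left out the dimmest 25% of genes, and none stood at the floor on any array. A log2 difference of 1 means a doubling in SALL4-sh relative to Scr-sh. With a limma adjusted p under 0.05 as the threshold, 4 of the 35 were higher in SALL4-sh (FARSB, MARS2, RARS1 and HARS1), beside 5.95% of the 13803 genes tested. IARS2 and WARS1 were lower, which is 2 of 35 beside 5.54% of the genes tested. The other 29 did not pass, with adjusted p-values from 0.119 to 0.978 from limma. The log2 differences ran from -1.11 for IARS2 to 1.85 for FARSB, with a median of 0.11 over the members and 0.018 over all genes tested. In 21 of the members the difference was under 0.3 in size. With no genes left out, limma called 1 member higher, PARS2, beside 1.18% of 18404 genes, and 1 lower, IARS2, beside 1.33%. Every SALL4-sh value lay above every Scr-sh value in 8 members, beside 15.7% of genes, and below in 7, beside 13.1%.

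**Figure D1:**
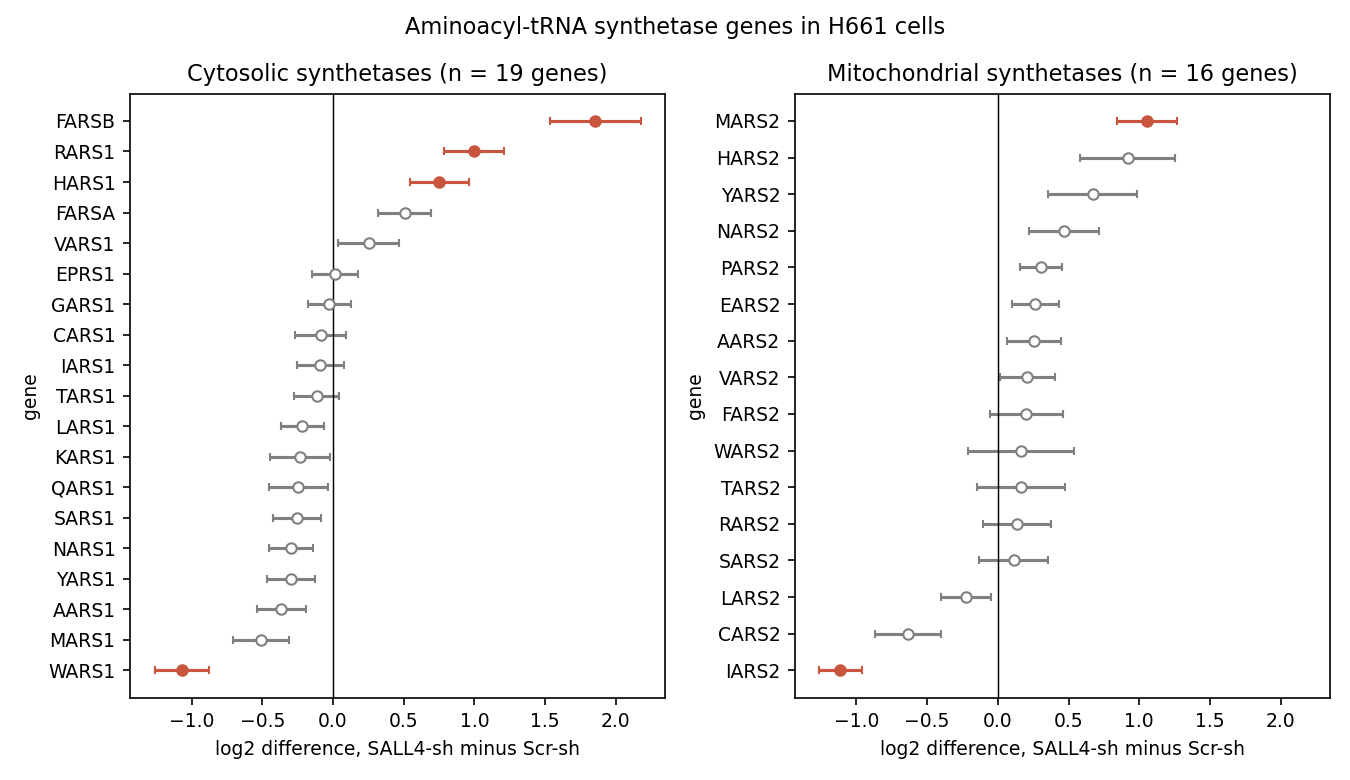
Log2 difference of each of the 35 synthetase genes, SALL4-sh minus Scr-sh, for the 19 cytosolic (left) and 16 mitochondrial (right) enzymes. Points are the fitted differences over 3 arrays a group, bars are the standard errors, and genes with filled points had a limma adjusted p under 0.05. FARSB stands farthest to the right at 1.85, and IARS2 and WARS1 farthest to the left at -1.11 and -1.07.

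The regions around the transcription starts are shown first, since 3 of their features return beside the values. RefSeq promoter windows of GRCh38.p14, each 250 bases before and 50 after a start, were at hand for 30 of the 35 members, the others being AARS2, LARS1, VARS1, VARS2 and YARS1. The letters TGATGNAA, read on both strands, were searched as the element that ATF4 binds with its partners. They stood in the windows of 8 of the 30 members, or 26.7%, beside 4.46% of all 27305 genes with a window and 2.78% of the 10896 genes that were also tested on the arrays. Of the 8 genes, 7 were among the 16 cytosolic members with a window, and YARS2 was the exception among the 14 mitochondrial ones. The stretches below give each match in capitals with 10 bases on either side, 5′ to 3′ on the strand of the gene. In the cytosolic genes the match read TTGCATCA or its reverse complement in all but GARS1, and all but that of AARS1 lay close to the start.
AARS1 (chr16:70289676-70289703, minus strand, first capital at -187 from the start): tttctcgcagTTGCATCAgccaagttag
CARS1 (chr11:3057408-3057435, minus strand, -2): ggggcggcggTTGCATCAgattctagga
GARS1 (chr7:30594835-30594862, plus strand, -33): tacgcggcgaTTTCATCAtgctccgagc
IARS1 (chr9:92293693-92293720, minus strand, -13): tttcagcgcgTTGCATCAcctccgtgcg
MARS1 (chr12:57488054-57488081, plus strand, -4): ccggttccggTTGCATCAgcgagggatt
NARS1 (chr18:57621805-57621832, minus strand, 14): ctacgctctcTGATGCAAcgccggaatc
TARS1 (chr5:33440957-33440984, plus strand, 2): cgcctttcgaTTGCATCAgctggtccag
YARS2 (chr12:32756077-32756104, minus strand, -197): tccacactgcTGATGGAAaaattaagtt

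FARSB RNA rose most of the family, and its partner subunit FARSA did not pass the test. Cytosolic phenylalanyl-tRNA synthetase is built of alpha chains, encoded by FARSA, which hold the catalytic site, and beta chains, encoded by FARSB, which hold the site that removes wrongly attached tyrosine. FARSB had intensities of 45.2, 106 and 41.3 in Scr-sh and 201, 198 and 233 in SALL4-sh. The groups lay far apart, although Scr-sh replicate 2 stood at more than double the level of the other 2 controls. The mean went from 64.0 ± 36.0 to 211 ± 19.5 (SD, n = 3 each), and the log2 difference was 1.85 (SE 0.32, 95% interval 1.13 to 2.58, adjusted p = 0.00778 from limma), or 3.62-fold. The call was kept without any 1 array, with log2 differences from 1.61 to 2.28, but not when no genes were left out (adjusted p = 0.123 from limma).

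FARSA had intensities of 90.3, 73.2 and 60.6 in Scr-sh and 100.5, 116 and 98.2 in SALL4-sh. Its groups did not overlap, but the gap between them was small, and its log2 difference of 0.51 did not pass (95% interval 0.08 to 0.93, adjusted p = 0.125 from limma). The change of FARSB relative to FARSA was read within each array, which cancels any scaling of the array. The log2 ratio of FARSB to FARSA was -0.999, 0.53 and -0.55 in Scr-sh and 1.00, 0.77 and 1.25 in SALL4-sh. Each SALL4-sh ratio lay above each Scr-sh ratio. The difference of 1.35 had p = 0.1 in an exact two-sided permutation test, the smallest p that 3 arrays against 3 allow. FARS2, the mitochondrial enzyme for phenylalanine, which works as a lone chain, was dim, with intensities of 10.5 to 14.5 and 11.2 to 21.2 that overlapped.

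RARS1, the cytosolic arginyl-tRNA synthetase and a member of the multi-synthetase complex, had intensities of 162, 223 and 152 in Scr-sh and 281, 392 and 396 in SALL4-sh. All SALL4-sh values lay above the controls, and Scr-sh replicate 2 was again the highest control. The mean went from 179 ± 38.7 (SD, n = 3) to 356 ± 65.3 (SD, n = 3), a log2 difference of 1.00 (SE 0.21, adjusted p = 0.0178 from limma). The call did not hold without Scr-sh replicate 1 (adjusted p = 0.0591 from limma), Scr-sh replicate 3 (0.0677), SALL4-sh replicate 2 (0.0725) or SALL4-sh replicate 3 (0.0783), and the difference stayed between 0.89 and 1.17. RARS2, which charges arginine in mitochondria and is a known gene of pontocerebellar hypoplasia, overlapped fully, with 106.5, 165.5 and 99.3 in Scr-sh and 105.9, 164 and 133 in SALL4-sh. The log2 ratio of RARS1 to RARS2 within an array went from 0.43 to 0.61 in Scr-sh to 1.26 to 1.58 in SALL4-sh, without overlap (exact permutation p = 0.1).

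HARS1 and HARS2 encode the cytosolic and the mitochondrial histidyl-tRNA synthetase, the former being the target of the Jo-1 autoantibodies of myositis. They are close in sequence, and whether their probes read each other's RNA was not tested. The genes lie head to head, and the whole interval between their starts is 84 bases long, shown here on the strand of HARS2 because transcription of both genes begins at its ends.
HARS1 to HARS2 (chr5:140691371-140691454, plus strand, no match to the searched letters): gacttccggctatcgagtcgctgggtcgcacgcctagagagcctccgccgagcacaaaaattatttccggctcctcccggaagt

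HARS1 had intensities of 43.2, 44.8 and 37.3 in Scr-sh and 58.9, 93.8 and 62.2 in SALL4-sh. The groups did not overlap, with SALL4-sh replicate 2 well above the rest. The log2 difference was 0.75 (SE 0.21, adjusted p = 0.0477 from limma), from 41.7 ± 3.96 to 71.6 ± 19.2 (SD, n = 3 each). That call was the least firm of the 6, since it did not hold without any 1 of the 6 arrays, with adjusted p-values from 0.0538 to 0.149 from limma and log2 differences from 0.54 to 0.88. HARS2 had intensities of 11.3, 30.6 and 24.9 in Scr-sh and 31.9, 46.1 and 39.5 in SALL4-sh. Its groups were also apart, narrowly, and its log2 difference of 0.92 did not pass (95% interval 0.16 to 1.68, adjusted p = 0.119 from limma). It passed without Scr-sh replicate 2 (adjusted p = 0.0407 from limma) and with the replicate number as a block (adjusted p = 0.0313 from limma). The ratio of HARS1 to HARS2 within an array differed by -0.17 on the log2 scale between the groups, and its values overlapped. EARS2, FARS2, KARS1, RARS2, SARS2 and WARS1 also had a measured head-to-head neighbour, whose difference had the opposite sign and did not pass. A part of the shared interval in the values was not tested.

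WARS1, the cytosolic tryptophanyl-tRNA synthetase and a classic interferon-gamma induced gene, was the cytosolic member that fell. Its intensities were 108, 88.0 and 70.1 in Scr-sh and 40.3, 39.2 and 45.8 in SALL4-sh. The SALL4-sh values were close together and all below the controls, which spread more widely. The mean went from 88.7 ± 18.9 to 41.8 ± 3.53 (SD, n = 3 each), a log2 difference of -1.07 (SE 0.19, adjusted p = 0.00894 from limma). The call was kept without any 1 array, with differences from -1.22 to -0.91, but not when no genes were left out (adjusted p = 0.0757 from limma). WARS2, the mitochondrial enzyme, overlapped, with 9.43, 14.2 and 13.7 in Scr-sh and 12.01, 26.3 and 8.21 in SALL4-sh, values close to the floor.

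WARS1 has an outer and an inner start in the RefSeq table. The letters GAAANNGAA, the core of the interferon-stimulated response element, were found before the inner start, and the 200 bases there are shown with the match in capitals.
WARS1 inner start (chr14:100375348-100375547, minus strand, match at -55): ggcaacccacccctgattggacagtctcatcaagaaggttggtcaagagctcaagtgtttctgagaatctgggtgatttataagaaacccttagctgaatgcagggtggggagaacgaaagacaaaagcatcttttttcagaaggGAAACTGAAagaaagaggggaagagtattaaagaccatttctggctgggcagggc
The same letters, on either strand, stood in the windows of EARS2, GARS1 and IARS1 too, 4 of 30 members or 13.3%, beside 9.86% of all genes. A match describes these letters in the window and is no measured binding site. WDR25, whose start lies 157 bases from a start of WARS1 on the other strand, had a log2 difference of 0.02 (adjusted p = 0.964 from limma). Of 14 other interferon-gamma induced genes listed, 12 were measured, 8 were tested, 4 fell and none rose, beside 5.54% and 5.95% of all genes tested. CXCL10, a chemokine, had 22.2, 156 and 32.8 in Scr-sh and stood at the floor of 8 on all SALL4-sh arrays. The size of its log2 difference, -2.60 (adjusted p = 0.0213 from limma), depends on the floor and on the high value of Scr-sh replicate 2. Without that array CXCL10 still passed, as the only gene of the list. B2M, the light chain of MHC class I, fell by 0.82 on the log2 scale, PSMB9, a subunit of the immunoproteasome, by 0.72, and TAP1, the peptide transporter, by 0.63. The 4 others tested did not pass and overlapped, with differences of 0.31 for ICAM1, -0.17 for IRF1, -0.10 for CIITA and -0.04 for SOCS1. GBP2, GBP4, PSMB8 and IDO1 stood at the floor on all 6 arrays. Without single arrays, between 0 and 2 of the 8 passed, and the list was chosen with the fall of interferon genes on these arrays known.

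Among the mitochondrial enzymes IARS2 fell. IARS2 charges isoleucine in mitochondria, and inherited defects of it cause growth hormone deficiency, cataract and skeletal dysplasia. Its intensities were 490, 455 and 443 in Scr-sh and 220, 216 and 205 in SALL4-sh. Both groups were tight, with no SALL4-sh value near a control value. The mean went from 463 ± 24.7 to 214 ± 7.73 (SD, n = 3 each), a log2 difference of -1.11 (SE 0.15, 95% interval -1.45 to -0.78, adjusted p = 0.00272 from limma), which left 46.2% of the control level. IARS2 was the only member called in all 15 alternative analyses. IARS1, its cytosolic counterpart in the multi-synthetase complex, overlapped, with 412, 493 and 442 in Scr-sh and 415, 476 and 379 in SALL4-sh, a log2 difference of -0.09 (95% interval -0.46 to 0.29). The log2 ratio of IARS1 to IARS2 went from -0.25, 0.12 and -0.0015 in Scr-sh to 0.92, 1.14 and 0.88 in SALL4-sh, with no overlap (exact permutation p = 0.1).

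MARS2, the mitochondrial methionyl-tRNA synthetase, which charges the tRNA that both starts and elongates mitochondrial proteins, rose. Its intensities were 56.3, 72.5 and 45.7 in Scr-sh and 104, 112 and 144 in SALL4-sh. The highest control, Scr-sh replicate 2, lay below the lowest SALL4-sh value. The mean went from 58.2 ± 13.5 to 120 ± 21.1 (SD, n = 3 each), a log2 difference of 1.05 (SE 0.21, adjusted p = 0.0146 from limma). The call did not hold without Scr-sh replicate 3 (adjusted p = 0.0536 from limma) or SALL4-sh replicate 3 (0.0642), with differences of 0.89 and 0.92. MARS1, the cytosolic methionyl enzyme, pointed the other way without passing. It had 306, 204 and 244 in Scr-sh and 166, 207 and 153 in SALL4-sh, which overlapped, and a log2 difference of -0.51 (95% interval -0.96 to -0.06, adjusted p = 0.149 from limma). The ratio of MARS1 to MARS2 within an array lay at 2.44, 1.49 and 2.41 on the log2 scale in Scr-sh and at 0.68, 0.88 and 0.09 in SALL4-sh. These did not overlap, and the difference of -1.56 had an exact permutation p of 0.1.
The palindrome CACGTG, an E-box read by MYC and other basic helix-loop-helix factors, was found just before the start of MARS2, and the 100 bases there are shown with it in capitals.
MARS2 (chr2:197705269-197705368, plus strand, match at -11): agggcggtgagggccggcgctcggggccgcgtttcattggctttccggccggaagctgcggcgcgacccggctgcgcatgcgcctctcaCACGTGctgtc
CACGTG also stood in the windows of CARS2, EARS2 and IARS1, so in 4 of 30 members or 13.3%, beside 8.77% of all genes and 12.3% of those tested on the arrays. The 3 other genes with CACGTG did not pass the test, and CARS2 and IARS1 had negative differences.

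**Figure D2:**
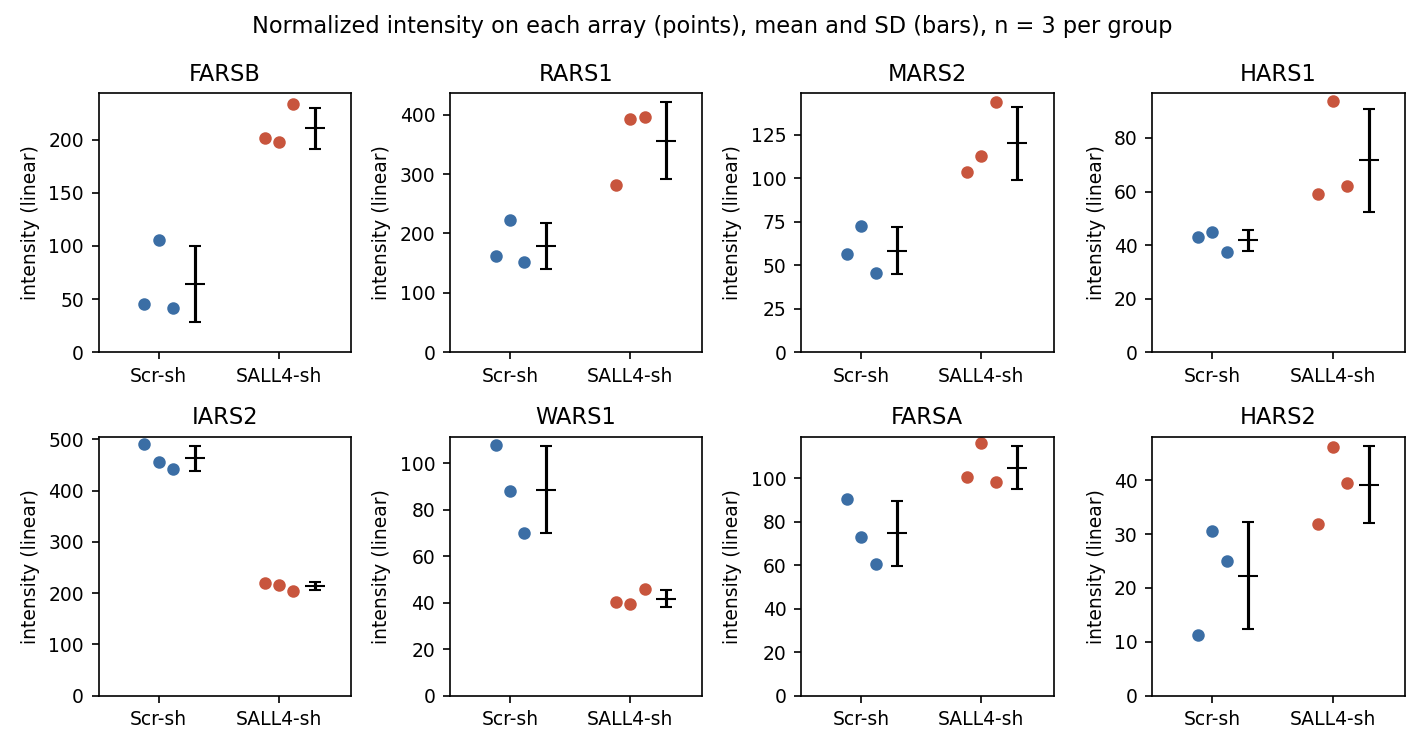
Normalized intensity (linear scale, axes from 0) of the 6 called members and of FARSA and HARS2 on each array. Points are arrays in the order of replicate number, Scr-sh in blue and SALL4-sh in red, and black bars are mean and SD (n = 3 per group). The groups do not overlap in any of the 8 panels, and the FARSB and RARS1 panels show Scr-sh replicate 2 above the other controls.

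Scr-sh replicate 2 was the highest control in 4 of 4 members called higher and Scr-sh replicate 1 in 2 of 2 called lower. Over all genes tested Scr-sh replicate 2 was the highest control in 5428 of 13803. Without Scr-sh replicate 2, FARSB, MARS2, RARS1, HARS2 and NARS2 passed as higher, HARS1 did not, and CARS2 joined IARS2 and WARS1 as lower.

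Most of the remaining cytosolic enzymes stood slightly lower in SALL4-sh without passing. Of the 19 cytosolic members 6 had a positive and 13 a negative difference, with a median of -0.12. Of the 13803 genes tested 7220 had a positive and 6583 a negative difference. AARS1, which charges alanine, had 489, 420 and 450 in Scr-sh and 403, 300.5 and 357 in SALL4-sh, a log2 difference of -0.36 (adjusted p = 0.227 from limma). NARS1, for asparagine, had 461, 404 and 426 against 368, 356 and 327, a difference of -0.30 (adjusted p = 0.278 from limma). In both genes every SALL4-sh value lay below every control, by a small margin. SARS1, for serine, and LARS1, for leucine and a sensor of it for mTORC1, also had groups that did not overlap, with log2 differences of -0.25 and -0.22. YARS1 at -0.30, QARS1 at -0.24, KARS1 at -0.23, TARS1 at -0.12, CARS1 at -0.09 and VARS1 at 0.25 overlapped. GARS1, which serves both cytosol and mitochondria, and EPRS1, in which the glutamyl and prolyl enzymes are fused, had the smallest differences of the family. GARS1 had 907, 839 and 794 in Scr-sh and 853, 847 and 793 in SALL4-sh, a log2 difference of -0.03 with a 95% interval of -0.37 to 0.32. EPRS1 had 502, 634 and 494 against 524, 555 and 558, a difference of 0.01 with an interval of -0.36 to 0.39.

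The 7 cytosolic genes with the ATF4 letters in their window (AARS1, CARS1, GARS1, IARS1, MARS1, NARS1 and TARS1) all had differences below 0, from -0.51 to -0.03 with a median of -0.12, and none was called. The 9 cytosolic genes whose window lacked them had a median of 0.01, with 4 of them below 0. They held all 4 cytosolic calls, 3 higher and 1 lower, beside 5.95% and 5.54% of all genes tested. The median of all 19 cytosolic members was -0.12 too, and LARS1, VARS1 and YARS1 had no window. YARS2, the mitochondrial gene with the letters, had a difference of 0.67 and was not called. A link between the letters and the differences was not tested. A set of 7 enzymes of the multi-synthetase complex (EPRS1, IARS1, LARS1, MARS1, QARS1, RARS1 and KARS1) had 1 called, RARS1, and a median of -0.22. AIMP1, a scaffold of that complex, had a difference of 0.24 (adjusted p = 0.668 from limma). By the fold of the catalytic domain, 2 class I members rose and 2 fell of 18, with a median of -0.09, and 2 class II members rose of 16, with a median of 0.18. Beside the 5.95% of all genes called higher and the 5.54% called lower, counts this small in groups of this size say little.

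Mitochondrial members leaned the other way in sign, with 13 of 16 above 0, beside 7220 of the 13803 genes tested, and a median of 0.21. Of the 16, MARS2 rose, IARS2 fell, and 13 had mean intensities under 50 in both groups, not far above the floor of 8. CARS2, the cysteinyl enzyme, had 23.9, 16.8 and 31.0 in Scr-sh and 12.8, 16.8 and 15.6 in SALL4-sh. Its highest SALL4-sh value lay just under its lowest control, and the log2 difference was -0.63 (adjusted p = 0.123 from limma). PARS2, the prolyl enzyme, had 40.4, 38.7 and 38.05 against 47.0, 47.6 and 50.002, tight and apart. Its log2 difference of 0.30 had an adjusted p of 0.243 from limma, and of 0.0381 when no genes were left out, a fit in which the spread is shared less between genes. EARS2, the glutamyl enzyme, was apart at 0.27 (adjusted p = 0.390 from limma). YARS2 at 0.67, NARS2 at 0.47, AARS2 at 0.26, VARS2 at 0.21, FARS2 at 0.20, WARS2 at 0.17, TARS2 at 0.16, RARS2 at 0.13, SARS2 at 0.11 and LARS2 at -0.22 overlapped. The least certain was WARS2, whose 95% interval ran from -0.68 to 1.01.

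**Figure D3:**
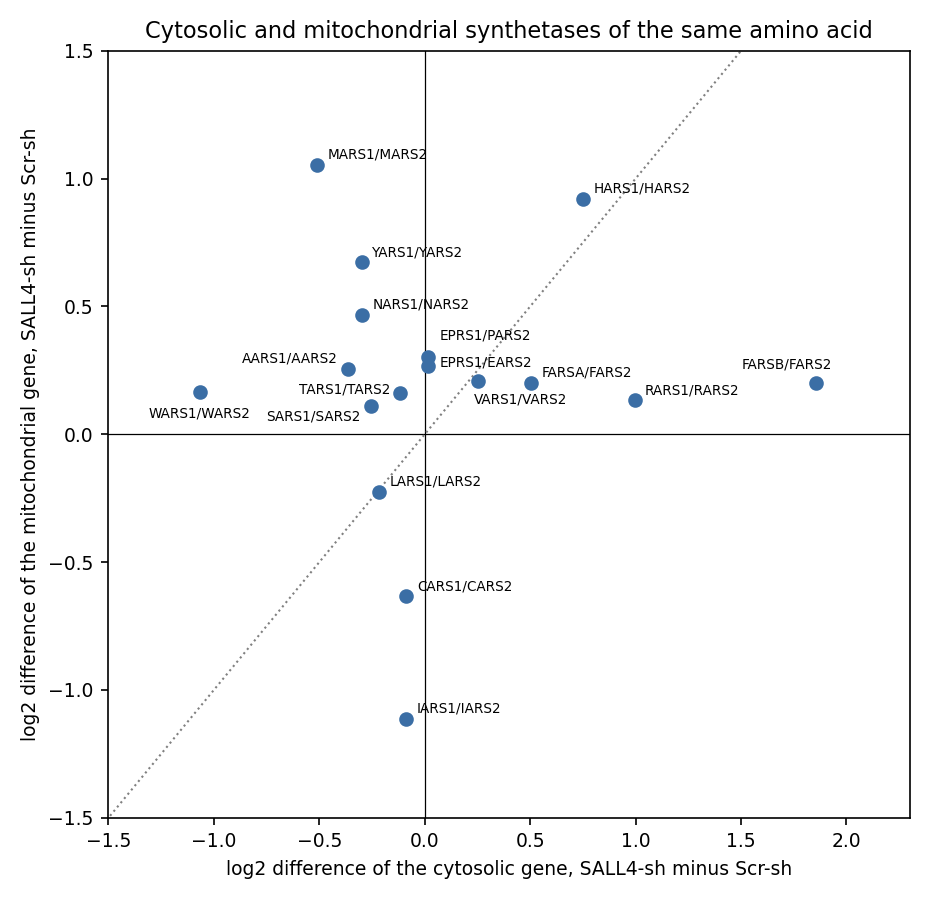
Log2 difference (SALL4-sh minus Scr-sh) of the cytosolic gene (horizontal) and of the mitochondrial gene (vertical) for the same amino acid. Each point is a pair of genes, and the dotted line marks equal differences. HARS1/HARS2 and LARS1/LARS2 lie near the line, whereas MARS1/MARS2, FARSB/FARS2, WARS1/WARS2 and IARS1/IARS2 lie far from it.

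The enzymes of the cytosol and of mitochondria were then set beside each other amino acid by amino acid. Beyond arginine, isoleucine and methionine, the within-array ratios of the groups did not overlap for FARSB to FARS2 (difference 1.65 on the log2 scale), YARS1 to YARS2 (-0.97), AARS1 to AARS2 (-0.62) and EPRS1 to PARS2 (-0.29). For tryptophan the ratio of WARS1 to WARS2 differed by -1.23 but overlapped, with an exact permutation p of 0.2, WARS2 being the scattered partner. The ratios for leucine and valine differed by 0.01 and 0.04. Since 18 such ratios were formed and 3 against 3 arrays cannot give a p under 0.1, none of them can pass a correction. How often ratios of other gene pairs lie apart was not tested. The groups of FARSB, RARS1, IARS2, MARS2, AARS1 and PARS2 were already apart, so ratios holding these genes are no separate support. The level of a ratio depends on the probes, and only its difference between groups was read.

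**Figure D4:**
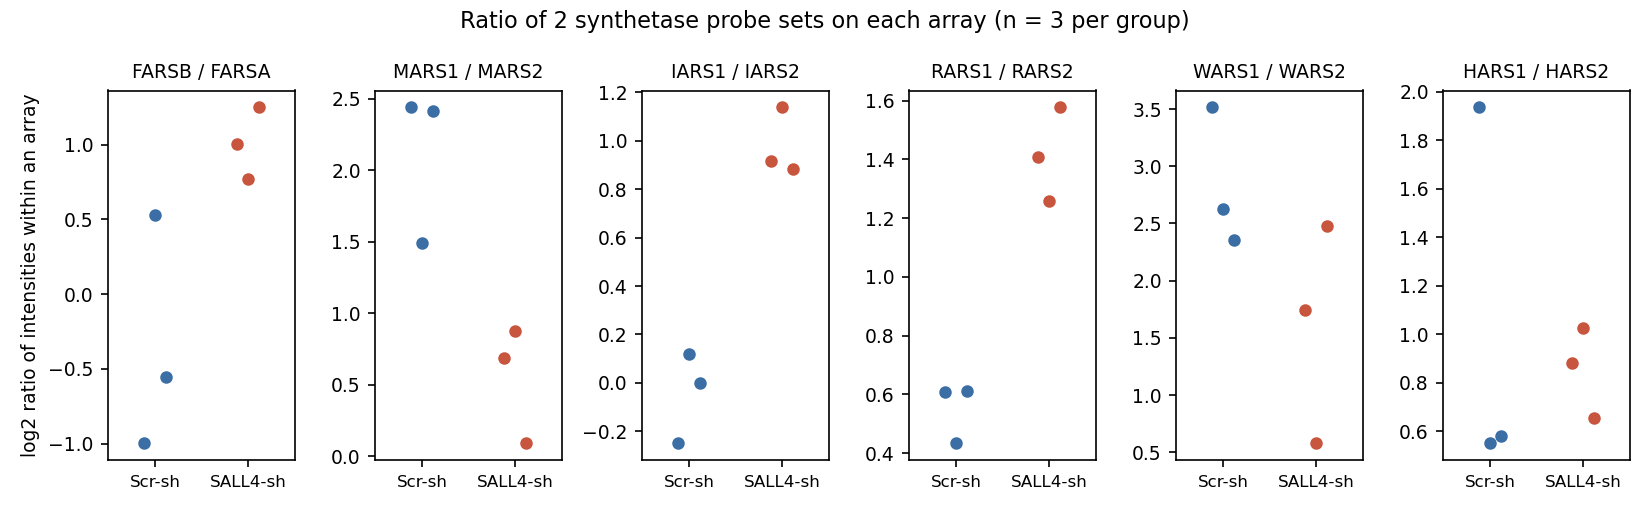
Log2 ratio of the intensities of a pair of synthetase genes on each array (vertical axes, not starting at 0), Scr-sh in blue and SALL4-sh in red, 3 arrays a group. The groups are apart for FARSB/FARSA, MARS1/MARS2, IARS1/IARS2 and RARS1/RARS2, and overlap for WARS1/WARS2 and HARS1/HARS2.

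Genes that work beside the synthetases were looked at by lists. Of 34 measured genes of the amino acid response, which is run by ATF4 and which shares targets with the synthetases, 6 fell and none rose, beside 5.54% and 5.95% of all genes tested, and the median was -0.33, beside 0.018 over all genes. In 14 of the 34 every SALL4-sh value lay below every control, beside 13.1% of all genes, and in 2 above, beside 15.7%. ASNS, asparagine synthetase, had 519, 415 and 434 in Scr-sh and 268, 258 and 211 in SALL4-sh, a log2 difference of -0.89 (adjusted p = 0.0124 from limma). SLC7A1, a carrier of arginine and lysine, had a difference of -1.22 (adjusted p = 0.0065 from limma), and SHMT2, the mitochondrial serine hydroxymethyltransferase, of -1.001 (adjusted p = 0.0118 from limma). NUPR1, a stress-induced chromatin protein, TRIB3, a pseudokinase that restrains ATF4 signaling, and EIF4EBP1, a repressor of cap-dependent translation, also fell, by 0.91, 0.98 and 1.15 on the log2 scale. Their adjusted p-values were 0.0176, 0.0499 and 0.0437 from limma. With an array left out, TRIB3 passed only without SALL4-sh replicate 3 and EIF4EBP1 only without Scr-sh replicate 2. ATF4 itself had a difference of -0.38 (adjusted p = 0.209 from limma). Between 3 and 7 of the list were lower when an array was left out (3 without any 1 SALL4-sh array, 7 without Scr-sh replicate 2), and 1, ATF3, when no genes were left out.

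Of 16 measured partners of charging, which hand charged tRNA to the ribosome or correct it, 3 fell and none rose, beside 5.54% and 5.95% of all genes tested, and the median was -0.23. GATC is a subunit of the mitochondrial amidotransferase that makes glutaminyl-tRNA from a wrongly charged precursor, and is needed because mitochondria have no glutaminyl synthetase of their own. It had 157, 213 and 121 in Scr-sh and 92.4, 67.8 and 67.9 in SALL4-sh, with no overlap, and a log2 difference of -1.08 (adjusted p = 0.0181 from limma). EEF1B2 and EEF1D, exchange factors of the elongation factor that carries charged tRNA, fell by 0.91 and 0.87. None of the 3 passed without Scr-sh replicate 1, SALL4-sh replicate 2 or SALL4-sh replicate 3, and GATC alone did without Scr-sh replicate 3 or SALL4-sh replicate 1.

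Of 21 tested genes of tRNA maturation 3 rose and 2 fell, beside 5.95% and 5.54% of all genes tested, with a median of 0.05. POP4, a protein subunit of RNase P, which trims the leader of precursor tRNAs, had 79.9, 129 and 82.0 in Scr-sh and 18.7, 32.4 and 15.4 in SALL4-sh. Its groups were far apart, and its log2 difference of -2.17 (adjusted p = 0.00285 from limma) was larger in size than that of any synthetase. RPP30, another RNase P subunit, fell by 0.87 on the log2 scale, whereas RPP14, a further one, rose by 1.15. TPRKB and TP53RK, of the complex that places a threonyl-carbamoyl group on tRNAs, rose by 0.86 and 0.65. Without single arrays between 0 and 3 of the list were called higher and between 1 and 2 lower, POP4 in each case.

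**Figure D5:**
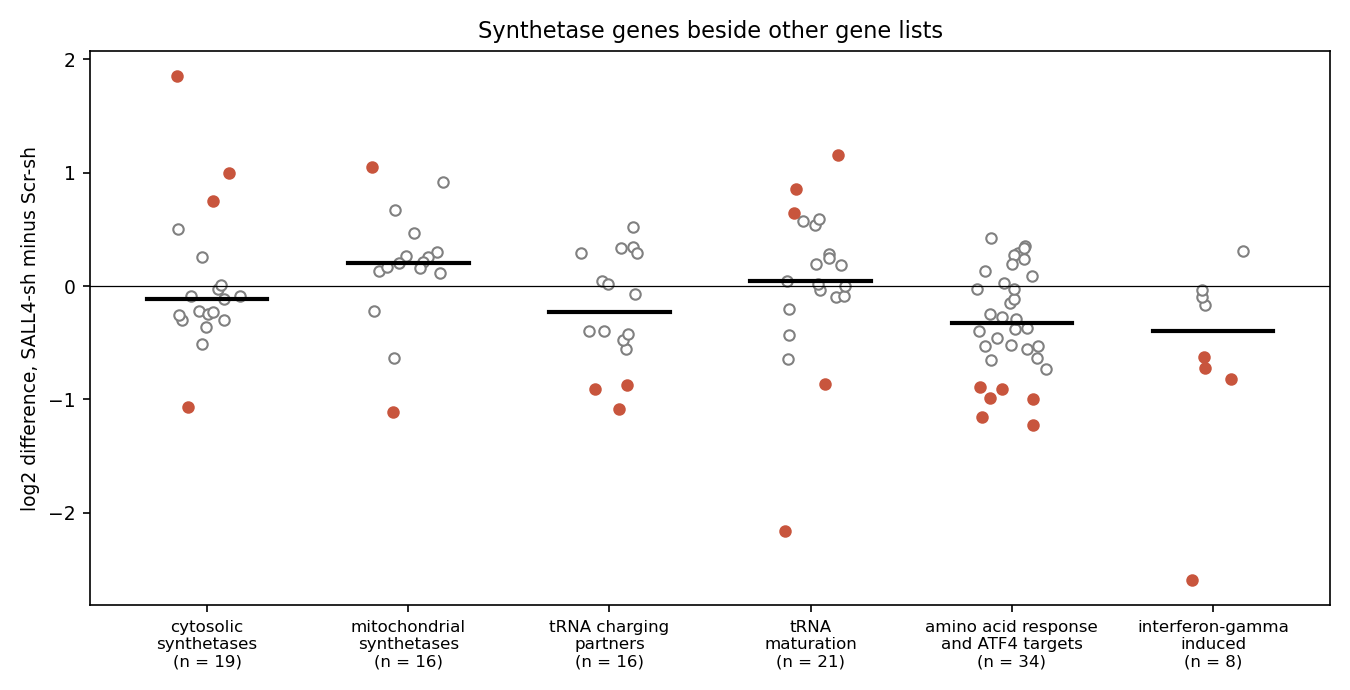
Log2 difference (vertical, SALL4-sh minus Scr-sh) of each tested gene of the cytosolic and mitochondrial synthetases and of 4 other lists. Genes with filled points had a limma adjusted p under 0.05, horizontal bars are list medians, and the sideways spread has no meaning. The median of the amino acid response genes lies at -0.33 with 6 filled points below 0, while that of the mitochondrial synthetases lies at 0.21.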

How the data were processed

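The members and gene lists were chosen with earlier results of these data known. Biotin-labelled cRNA from 5 µg of total RNA was hybridised to Affymetrix arrays. The authors deposited intensity values for 32321 probe sets, normalized by RMA according to the submitters' processing notes (version not given in the sources used here), on a linear scale with every value under 8 set to 8. That floor held 38.8% to 40.4% of an array's values. The labels give 10% serum and Trizol, the paper 15% serum and a column kit. Arrays have no read depth, and their number limits the precision.

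Genes were named through the platform annotation for the 19158 probe sets with 1 symbol. Another 1388 had several and 11775 none listed. Each gene was represented by its brightest probe set, averaged over the 6 arrays (1 member, VARS2, had a second). The log2 values were fitted with limma 3.58.1 in R 4.3.3 (lmFit, eBayes without trend, Benjamini-Hochberg over all genes tested, two-sided, threshold 0.05). The dimmest 25% of genes by mean log2 intensity (8.28 or less on the linear scale) were left out, since 3893 genes at the floor on all arrays had no spread. With this filter limma estimated 5.33 prior degrees of freedom, and without it 0.422. The fit was also run on simulated data in which only brighter genes were changed, so that run does not cover dim members. Exact permutation tests used all 20 labelings (SciPy 1.17.1). Motifs were matched in RefSeq promoter windows of GRCh38.p14, with positions counted from 0 at the start site. All members are accounted for, with array values for those called and their partner enzymes, and up to 6 genes with the smallest p of each list. Array values of further members were chosen after their values were seen. The alternatives were no filter, the 50th percentile, median centring, cyclic loess, quantile normalization, and trend with robust fitting. Others were the one-way ANOVA named in the paper, the replicate number as a block, the mean of probe sets, and each array left out. The list counts were put through them after the data were seen.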

Additional observations from a re-analysis of the deposited data

How the results depend on the processing

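The 15 synthetases that passed or whose groups did not overlap kept the sign of their difference in all 15 alternative analyses (225 values). Only median centring, cyclic loess and quantile normalization could have reversed a sign. Leaving out 1 array cannot do so where groups do not overlap, and the other refits leave the difference unchanged. Of the 225 values 197 stayed on the same side of the threshold, many in genes never called, 24 were calls lost and 4 calls gained. The calls held in all 15 alternatives for IARS2, 13 for FARSB, 13 for WARS1, 11 for MARS2, 9 for RARS1 and 5 for HARS1. The count of members higher, 4, became 1 with no genes left out and 0 with the one-way ANOVA (5 at an unadjusted p under 0.05), and ran from 1 to 5 with an array left out, the lowest without SALL4-sh replicate 3. It was 3 after cyclic loess and with trend and robust fitting, and 4 in the others except the block. The count lower, 2, became 1 with no genes left out and 1 with the one-way ANOVA, and ran from 2 to 3 with an array left out. The cause was not tested. The median of cytosolic members lay between -0.22 and -0.05 and that of mitochondrial members between 0.18 and 0.30. Of the 4 gene lists, no member was called with the one-way ANOVA, and 1 (ATF3) with no genes left out. Over all genes tested, 821 higher and 764 lower became 218 and 244 with no genes left out, 113 and 144 with the one-way ANOVA, and 323 to 1115 and 383 to 830 with an array left out.

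With the replicate number as a block, 5 members were higher, HARS2 being added, and 2 lower. Deviations of same-numbered arrays correlated at 0.144, 0.113 and -0.000886 for replicates 1, 2 and 3, and those of differently numbered arrays at -0.152 to 0.0341. The values of replicates 1 and 2 thus lay above those of all differently numbered arrays. Whether arrays of 1 number shared their handling was not tested, and the main fit did not pair them. The number of arrays and the floor of 8 limit the precision for dim members.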
